A study of Mus musculus with 12 samples.

Results

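The libraries described here are 6 RNA-seq libraries labelled as RAW264.7, a macrophage-like line from a tumour of a male BALB/c mouse, 6 of 12 in the series. LPS at 10 ng/mL had been given to all cells of both times together with IFN-γ of the mouse, also at 10 ng/mL, and none of these 6 received Mdivi-1, the Drp1 inhibitor given to the other 6. The 96 h group has 3 libraries. Of the 3 libraries of 24 h, numbers 1 and 2 enter the comparison, and number 3, which holds almost no messenger RNA, is given apart. Cells without stimulus were not analysed here, and each value compares a late with an early state of stimulated cells. Whether replicates of a group grew as separate cultures is not stated in the labels. If they did not, the p-values reflect technical spread alone.

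The cells grew in DMEM with 10% fetal bovine serum. Mitochondrial, structured RNA and satellite-like genes were removed, the median of odorant, pheromone and trace amine receptor genes was subtracted from each library, and the rest was rescaled to 1000000. These values are called rescaled TPM below. Of 49585 genes listed, 10208 had a mean of at least 10 over the 5 libraries and are the genes described. The gene nearest to that limit was Tmem87b, at 10.0003, and the next one outside it was Pskh1, at 9.9993. A gene is said to have risen or fallen at 96 h only where limma gave an adjusted p under 0.05.

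LPS is a cell wall lipid of Gram-negative bacteria that binds Toll-like receptor 4 and switches on NF-κB and interferon factors. IFN-γ acts through its own receptor and raises antigen presentation and antimicrobial genes. Given together, they drive macrophages to the classical inflammatory state, with nitric oxide, prostaglandins, interleukins and chemokines. An early burst is followed by feedback inhibitors, and over days such cells are known to lose mitochondrial respiration.

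The kinds of RNA in the libraries differed between the times and set a limit on every comparison here. Genes of the mitochondrial genome took 58.6%, 62.5% and 80.8% of the TPM total in the 96 h libraries, against 5.54% and 5.20% in 24 h libraries 1 and 2. Structured RNAs, such as 7SL, took 6.08%, 5.54% and 4.87% at 96 h and 46.7% and 46.4% at 24 h. Satellite-like genes took 24.0%, 21.7% and 7.35% at 96 h and almost nothing at 24 h. What was left after the subtraction was 5.26%, 5.43% and 5.78% of the total at 96 h and 47.7% and 48.4% at 24 h. One TPM therefore became 19.0, 18.4 and 17.3 rescaled units at 96 h and 2.09 and 2.06 at 24 h, a ratio of means of 8.77, or 3.13 on the log2 scale. A rise much smaller than that on the rescaled scale is a fall in TPM as deposited, so the counts of the gene lists with rises are also given on that scale, as is the log2 difference of each gene named as a riser whose call or direction it changes. Sequencing depth is unknown, since the files give TPM and no counts.

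**Figure D1:**
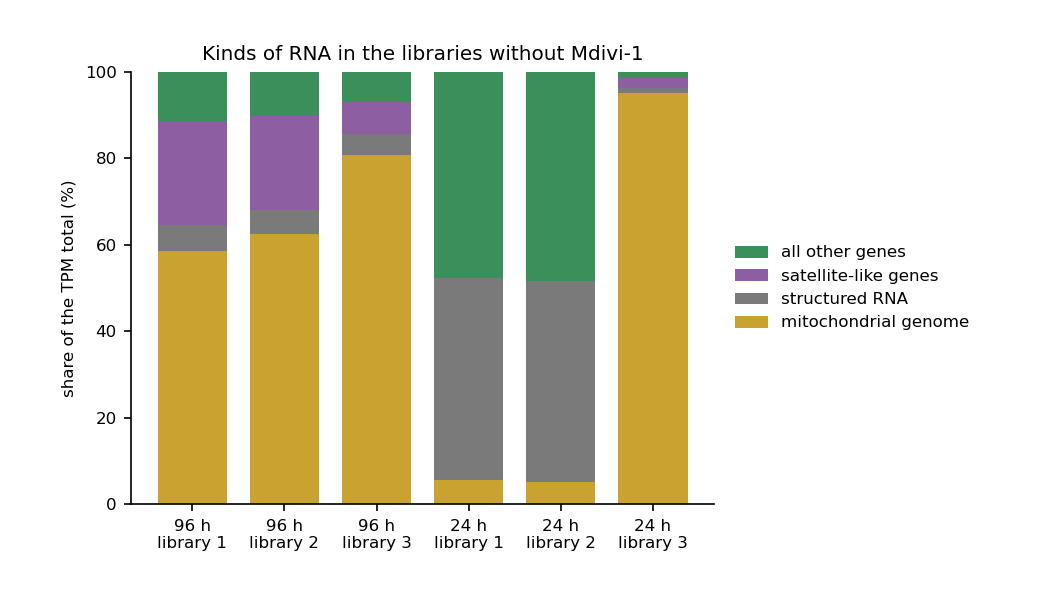
Share of the TPM total, in percent, taken by mitochondrial genes, structured RNA, satellite-like genes and all other genes in each of the 6 libraries without Mdivi-1, as stacked bars. The 96 h libraries and 24 h library 3 are mostly mitochondrial RNA, while 24 h libraries 1 and 2 are about equal parts of structured RNA and other genes.

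The 96 h libraries also carried a low signal over genes that macrophages keep silent. The median of 1981 receptor genes was 2.68, 2.08 and 0.495 TPM at 96 h and 0 in 24 h libraries 1 and 2. After subtraction the 95th percentile of these genes was still 88.1, 67.8 and 16.9 rescaled TPM at 96 h, against 0 at 24 h. A 96 h value under about that size is therefore not told apart from background. Where the 24 h values of a gene also lie under 88.1 and 67.8, a low value in 96 h libraries 1 and 2 cannot be read as absence. Among the genes named below this holds for Pink1, Ptgs1, Opa1, Mcoln1, H2-Ab1, Rrm2, Mrc1, Tlr4 and Csf1, and for others. Over the genes described, the log2 values of the 3 96 h libraries correlated with one another at 0.521 to 0.771, and the 24 h libraries at 0.998. With 24 h library 1, 96 h library 3 correlated at 0.618, and 96 h libraries 1 and 2 at 0.00168 and 0.148. These correlations are across genes, which are not independent. Library 3, which has the lowest receptor signal, stands apart from the other 96 h libraries in this way.

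Over all 10208 genes, 2776 rose at 96 h (27.2%) and 2595 fell (25.4%), which makes 52.6% in either direction, with a median log2 difference of 0.33 (96 h minus 24 h, on the log2(value + 10) scale, as for each log2 difference below, with its SE). Each time group was clear of the other, with no overlap of values, for 72.2% of the genes. Among the genes that rose, 1462 have only placeholder symbols, and of 475 tested receptor genes 52.8% rose. Protein-coding genes rose in 16.8% of 6970 cases and fell in 36.7%, while of 2378 pseudogenes 47.9% rose and 0.421% fell. A count of risers is therefore read against 27.2%, and the median of a list against 0.33. The protein-coding genes of the same fit had a median log2 difference of -0.71. Since the gene lists hold mainly protein-coding genes, they are also read against 16.8%, 36.7% and -0.71. The genes named as having risen below are mostly far above the receptor signal. Of the risers 941 lay above the 95th percentile of the receptor genes in every 96 h library. Over the 7002 genes above that level in either group 19.6% rose and 38.5% fell. At 24 h that level is 0, so any value above 0 in both 24 h libraries passes. The filter thus keeps fallers more readily than risers, and its split is not a result cleared of background. The split of calls turned with the treatment of background: with the 90th percentile of the receptor genes subtracted 1002 rose and 2847 fell, with none subtracted 8877 rose and 2875 fell, and over protein-coding genes alone 1640 rose and 2357 fell. Without 24 h library 1, 1037 rose and 901 fell, and without 24 h library 2, 1041 rose and 918 fell. Such counts are given below where they move by over 1.5 times and by more than 1 gene. In them 1 library is left out at a time, and fewer genes can pass the mean of 10. A lone 24 h library is assumed there to vary like the other groups. With 96 h library 3 as the only one of its time, a setting chosen after seeing the data, 1646 rose and 2688 fell.

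Markers of other cell types were low at 96 h and partly present at 24 h. Of 12 tested fibroblast markers, from 21 listed, 1 rose and 11 fell (median log2 difference -3.06), while 7 fell without 24 h library 1 or 2. With no filter on the mean, 1 of 21 rose and 20 fell (median -1.76). Their summed value was 79.2, 63.6 and 19.2 rescaled TPM at 96 h and 1321 and 1297 at 24 h. Col1a1 (ENSMUSG00000001506), the gene of the α1 chain of collagen I, was listed at 0 in each 96 h library and had 252 and 284 at 24 h (log2 difference -4.79 ± 0.25, adjusted p = 4.03e-06), and Sparc, Acta2, Dcn and Pdgfra showed the same. The 1 that rose was Prrx1, with 47.5, 34.1 and 11.6 at 96 h and 1.84 and 2.51 at 24 h (log2 difference 1.64 ± 0.43, not called without 24 h library 1 or 2), within the receptor signal. Of the 29 epithelial, endothelial, T cell and B cell markers listed, each stayed under a mean of 10. Of 2 tested neutrophil markers, from 9 listed, both fell (median log2 difference -2.52). Of 7 dendritic cell markers Itgax was tested and fell to 0, 0 and 6.90 at 96 h, against 292 and 213 at 24 h. The part of other cells in the falls of other lists was not tested.

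RAW264.7 cells are known to lack Apoe and Pycard, the adaptor of inflammasomes. Apoe was at 0 in each 96 h library and had 2687 and 2979 rescaled TPM at 24 h. Pycard was listed at 0 in each 96 h library and had 60.7 and 59.4 rescaled TPM at 24 h (log2 difference -2.81 ± 0.23). By Apoe, Pycard and the collagens, 24 h libraries 1 and 2 go against the labelled cell type. The 96 h libraries do not by these genes, but 24 of 27 macrophage markers also fell there. The 24 h values of Pycard lie under the receptor 95th percentile of 96 h libraries 1 and 2 (88.1 and 67.8), so its 0 in those 2 cannot be read as absence. Xist, the RNA of the inactive X of female cells, was at or near 0 in all 5 libraries. The Y-linked Ddx3y had 0, 0 and 5.01 at 96 h and 25.2 and 26.3 at 24 h (log2 difference -1.64 ± 0.30). Time, the kind of library and the source of the cells cannot be told apart in any result below.

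Secreted inflammatory signals stood far higher at 96 h, led by interleukin-1, granulocyte colony-stimulating factor and neutrophil attractants. Of 12 tested inflammatory cytokines, from 20 listed, 9 rose and 2 fell (median log2 difference 2.52). Members under the filter included, 9 of 20 rose and 4 fell (median 0.70). As deposited TPM, 6 of 17 rose and 4 fell.

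Csf3 (ENSMUSG00000038067), the growth factor of granulocytes, had 1047, 1112 and 1293 rescaled TPM in the 96 h libraries, against 0.229 and 0.200 in the 24 h libraries (log2 difference 6.82 ± 0.14, adjusted p = 2.90e-08). Among genes with more than a placeholder symbol it had the largest rise. Il1b (ENSMUSG00000027398), the precursor of interleukin-1β, had 6179, 6543 and 8322 at 96 h, against 108 and 107 at 24 h (log2 difference 5.89 ± 0.14, adjusted p = 3.77e-08). Its mean was 65.1-fold that of the 24 h libraries. Il1a (ENSMUSG00000027399), the alarm signal interleukin-1α, had 5294, 5890 and 7078 at 96 h and 165 and 179 at 24 h (log2 difference 5.05 ± 0.12, adjusted p = 4.50e-08). For all 3 genes each 96 h library lay far above both 24 h libraries.

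The natural brake of this pathway moved with its ligands. Il1rn, which encodes the interleukin-1 receptor antagonist, had 2394, 3184 and 3526 rescaled TPM at 96 h and 431 and 416 at 24 h (log2 difference 2.79 ± 0.15 and -0.29 in TPM as deposited). Il27, a cytokine of myeloid cells that acts on T cells, had 374, 505 and 784 at 96 h and 3.80 and 5.82 at 24 h (log2 difference 5.19 ± 0.31). Lif, of the interleukin-6 family, had 55.2, 87.5 and 113 at 96 h and 0.744 and 1.43 at 24 h (log2 difference 3.05 ± 0.28, and 2.02 and not called with the 90th percentile of the receptor genes subtracted). Tnf (ENSMUSG00000024401), the cytokine that peaks within hours of LPS, had 422, 387 and 552 at 96 h and 139 and 149 at 24 h (log2 difference 1.57 ± 0.21 and -1.35 in TPM as deposited, adjusted p = 0.000600). The order of Tnf was the other way round in TPM as deposited, with 24.9, 23.1 and 32.4 TPM at 96 h and 66.3 and 72.3 TPM at 24 h. Il6 (ENSMUSG00000025746), the fever cytokine, had 36.5, 14.0 and 40.6 rescaled TPM at 96 h and 1.9996 and 1.86 at 24 h (log2 difference 1.68 ± 0.35, adjusted p = 0.00520, not called without 24 h library 1 or 2). Its values in 96 h libraries 1 and 2 lie within the receptor signal, and that in library 3 lies above the receptor 95th percentile there (16.9). Csf1, the growth factor on which macrophages live, fell to 0, 2.25 and 0.977 at 96 h, against 63.1 and 57.3 at 24 h (log2 difference -2.67 ± 0.33).

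Chemokines moved in both directions. Of 4 tested CXC chemokines, from 9 listed, 3 rose and 1 fell (median log2 difference 3.40). Over the list without that filter, 3 of 9 rose and 3 fell (median -0.47). On the scale of the deposited TPM, 2 of 9 rose and 5 fell. Of 10 tested CC chemokines, from 12 listed, 5 rose and 3 fell (median log2 difference 1.94), while 1 fell without 24 h library 2. Tested with no filter, 5 of 12 rose and 5 fell (median 0.94). Without rescaling, 4 of 10 rose and 5 fell in TPM as deposited. Cxcl2 (ENSMUSG00000058427), which draws neutrophils, had 1635, 1639 and 1841 rescaled TPM at 96 h and 11.1 and 9.88 at 24 h (log2 difference 6.38 ± 0.13, adjusted p = 2.90e-08). Cxcl10 and Cxcl11, interferon-induced ligands of Cxcr3 on T cells, also rose. Cxcl10 had 225, 484 and 726 at 96 h and 38.4 and 63.9 at 24 h (log2 difference 2.88 ± 0.45 and 0.12 in TPM as deposited, not called there), with a wide spread among the 96 h libraries. Cxcl11 had 92.6, 127 and 251 at 96 h and 0.171 and 0.149 at 24 h (log2 difference 3.92 ± 0.39). Cxcl16, a membrane-bound chemokine and scavenger receptor, fell to 157, 151 and 228 at 96 h, against 432 and 412 at 24 h (log2 difference -1.22 ± 0.22).

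Among CC chemokines, Ccl3 and Ccl4, the macrophage inflammatory proteins, reached the level of the interleukins. Ccl3 (ENSMUSG00000000982) had 8565, 9298 and 11912 rescaled TPM at 96 h and 323 and 337 at 24 h (log2 difference 4.85 ± 0.15, adjusted p = 2.19e-07). Ccl4 had 3026, 3386 and 4371 at 96 h and 159 and 139 at 24 h (log2 difference 4.48 ± 0.18). Ccl22, which draws regulatory T cells, had 171, 132 and 259 at 96 h and 0.835 and 1.10 at 24 h (log2 difference 4.12 ± 0.28). The monocyte attractant Ccl2 (ENSMUSG00000035385) rose less, with 2115, 2149 and 2986 at 96 h and 564 and 650.1 at 24 h (log2 difference 1.96 ± 0.17 and -1.13 in TPM as deposited, adjusted p = 7.07e-05). Ccl5, an interferon-responsive chemokine of T cells, fell slightly, to 4122, 4075 and 5665 at 96 h, against 6400 and 6816 at 24 h (log2 difference -0.53 ± 0.14, not called without 24 h library 1 or 2). With the 90th percentile of the receptor genes subtracted, Ccl5 was not called either (-0.092). Ccl6 fell to 216, 205 and 169 at 96 h, against 743 and 722 at 24 h (log2 difference -1.85 ± 0.28).

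Promoters of these chemokines are shown because NF-κB sites near the start are a textbook feature of LPS-induced genes. The sequences are the 250 bases before the start in RefSeq on GRCm38.p6, in the direction of transcription. Capitals mark matches on either strand to the NF-κB decamer GGGRNYYYCC. R stands for A or G, Y for C or T and N for any base, and looser variants are not marked. Cxcl2 lies at chr5:90903649-90903898 on the plus strand, and Cxcl10 at chr5:92348890-92349139 on the minus strand, where the capitals join 2 overlapping matches.
Cxcl2: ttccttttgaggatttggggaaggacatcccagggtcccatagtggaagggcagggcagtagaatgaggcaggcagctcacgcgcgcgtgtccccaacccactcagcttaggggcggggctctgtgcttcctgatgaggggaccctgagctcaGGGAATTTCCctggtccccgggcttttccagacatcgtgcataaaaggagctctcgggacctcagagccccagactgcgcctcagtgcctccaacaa
Cxcl10: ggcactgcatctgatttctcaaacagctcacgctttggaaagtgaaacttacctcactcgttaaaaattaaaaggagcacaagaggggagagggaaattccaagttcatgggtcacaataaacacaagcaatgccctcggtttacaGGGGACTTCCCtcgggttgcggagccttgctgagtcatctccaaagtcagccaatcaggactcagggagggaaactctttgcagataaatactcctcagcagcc
Of the 6 CXC chemokines with an entry, 4 held the decamer in these bases, against 4.78% of all 27025 promoters, and of 13 inflammatory cytokines 2 held it. Cxcl1 and Cxcl3, the other 2 with a match, had means under 10 and were not tested. A match is a description of the letters and not a measured site.

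The inducible enzymes of nitric oxide and prostaglandin synthesis were among the genes of largest rise. Nos2 (ENSMUSG00000020826), the inducible nitric oxide synthase, had 932, 1033 and 1309 rescaled TPM at 96 h and 3.23 and 4.11 at 24 h (log2 difference 6.32 ± 0.18, adjusted p = 1.13e-07). Arg1 (ENSMUSG00000019987), which encodes the arginase that uses the same substrate, was listed at 0 in all 3 libraries of 96 h after subtraction and had 142 and 94.9 at 24 h (log2 difference -3.66 ± 0.28, adjusted p = 2.99e-05). Odc1, which takes the ornithine pathway on to polyamines, had 2044, 2119 and 2518 at 96 h and 83.2 and 78.2 at 24 h (log2 difference 4.62 ± 0.12). Ass1 and Asl, which rebuild arginine from citrulline, both fell. Ass1 had 6.42, 89.8 and 81.6 at 96 h and 185 and 174 at 24 h (log2 difference -1.83 ± 0.68, adjusted p = 0.0498, not called without 24 h library 1 or 2). Of 13 tested genes of nitric oxide, arginine and polyamines, from 14 listed, 2 rose and 4 fell (median log2 difference -0.75), while 4 rose without 96 h library 1, and 1 fell without 24 h library 1 or 2 and in the fit of the 5 libraries alone. Counted in TPM as deposited, 2 of 14 rose and 12 fell.

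Ptgs2 (ENSMUSG00000032487), the inducible cyclooxygenase COX-2, had 2214, 2179 and 2639 rescaled TPM at 96 h and 17.8 and 14.1 at 24 h (log2 difference 6.50 ± 0.14, adjusted p = 2.90e-08). Pla2g4a, the phospholipase that frees its substrate arachidonic acid, had 77.6, 59.7 and 104 at 96 h and 19.1 and 18.2 at 24 h (log2 difference 1.63 ± 0.24 and -0.48 in TPM as deposited, and 0.89 and not called with the 90th percentile of the receptor genes subtracted). The constitutive Ptgs1 (COX-1) was listed at 0 in each 96 h library and had 30.2 and 26.0 at 24 h (log2 difference -1.93 ± 0.24). Alox5ap, needed for leukotriene synthesis, fell to 14.1, 6.39 and 55.0 at 96 h, against 352 and 361 at 24 h (log2 difference -3.64 ± 0.50). Of 9 tested prostaglandin and leukotriene enzymes, from 12 listed, 3 rose and 6 fell (median log2 difference -1.93), while 2 fell without 24 h library 1 or 2. When low members were kept, 3 of 12 rose and 9 fell (median -1.03). Read as deposited TPM, 1 of 11 rose and 10 fell. The prostaglandin synthases Ptges and Hpgds were among those that fell. Ptges was not called without 24 h library 1 or 2, or with a pseudocount of 1.

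**Figure D2:**
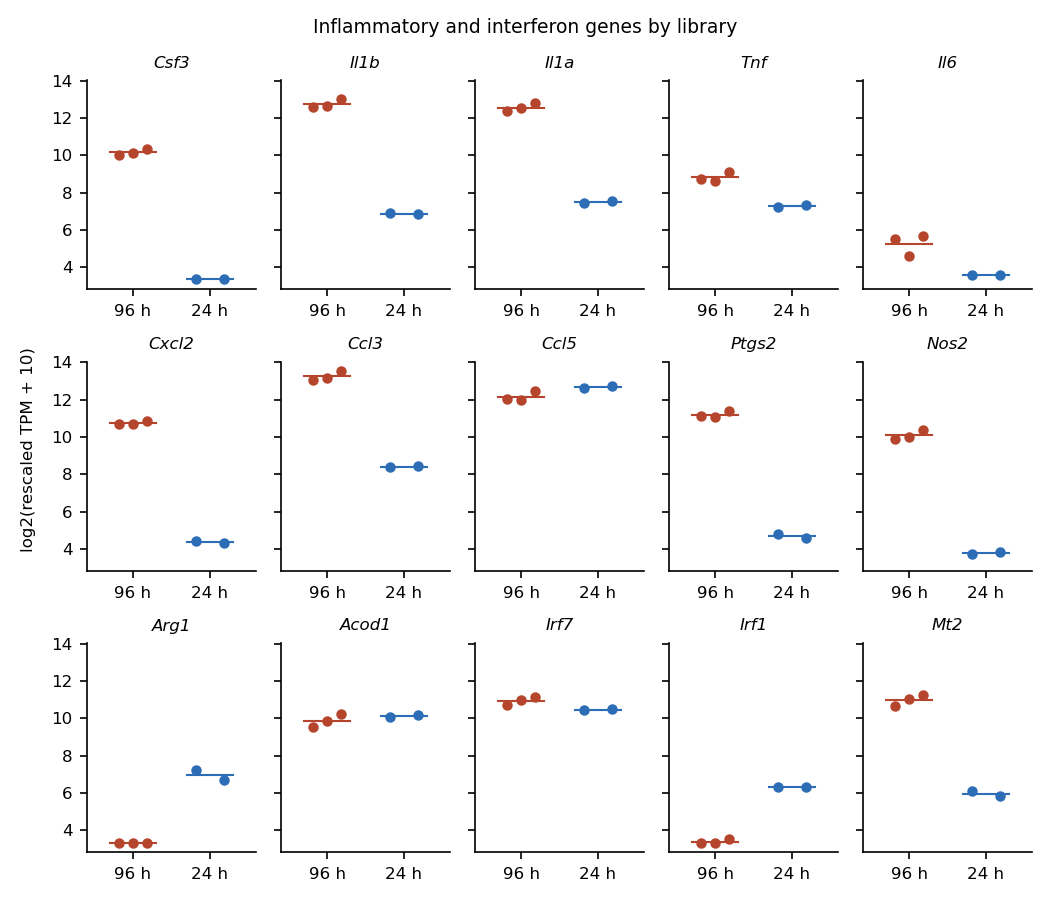
Values of 15 inflammatory, interferon and metal genes as log2(rescaled TPM + 10), one point per library and a line at the group mean, 96 h left of 24 h. Csf3, Il1b, Cxcl2, Ptgs2, Nos2 and Mt2 lie far higher at 96 h, Arg1 and Irf1 lower, and Acod1 overlaps. Tnf and Irf7, drawn higher here, lie lower at 96 h in TPM as deposited.

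Several NF-κB feedback genes rose on the rescaled scale, while genes of LPS sensing fell. Of 17 tested NF-κB subunits and feedback genes, from 18 listed, 8 rose and 1 fell (median log2 difference 0.57), while 4 rose without 24 h library 1 or 2 and 5 in the fit of the 5 libraries alone. As deposited TPM, all 18 fell. Nfkbia, the inhibitor IκBα that NF-κB itself induces, had 1342, 1606 and 1745 rescaled TPM at 96 h and 321 and 334 at 24 h (log2 difference 2.21 ± 0.15 and -0.85 in TPM as deposited). Nfkb2, of the slower alternative arm, had 322, 278 and 447 at 96 h and 92.7 and 99.6 at 24 h (log2 difference 1.73 ± 0.22 and -1.12 in TPM as deposited). Rela, the p65 subunit, fell to 0, 5.51 and 8.04 at 96 h, against 77.3 and 74.2 at 24 h (log2 difference -2.61 ± 0.30).

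Of 16 tested genes of LPS sensing and its relatives, from 20 listed, 11 fell and 5 were not called (median log2 difference -1.75), while 4 fell without 24 h library 1 or 2 and 7 in the fit of the 5 libraries alone. Cd14, which hands LPS to its receptor, had 613, 844 and 1084 at 96 h and 700.0 and 601 at 24 h (log2 difference 0.34 ± 0.21, adjusted p = 0.174) and was not called. Tlr4, the LPS receptor itself, had 5.55, 1.68 and 15.8 at 96 h and 50.0 and 50.4 at 24 h (log2 difference -1.85 ± 0.40, not called without 24 h library 1 or 2). Tlr2, the receptor of bacterial lipoproteins, fell to 25.6, 64.3 and 24.9 at 96 h, against 235 and 261 at 24 h (log2 difference -2.51 ± 0.35). The largest fall of the list was that of Tlr13, which reads bacterial ribosomal RNA. It was listed at 0 in each 96 h library and had 339 and 324 at 24 h (log2 difference -5.09 ± 0.19). Tlr7, the receptor of single-stranded RNA, had 0, 0 and 8.33 at 96 h and 104 and 104 at 24 h (log2 difference -3.22 ± 0.32).

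More interferon-induced genes fell than rose, with a median near that of the protein-coding genes of the fit (-0.71, with 36.7% lower). Of 33 tested interferon-induced genes, from 34 listed, 6 rose and 18 fell (median log2 difference -0.65), while 8 fell without 24 h library 1 or 2. Irf1, a transcription factor that IFN-γ induces early, fell to 0, 0 and 1.44 rescaled TPM at 96 h, against 69.0 and 68.9 at 24 h (log2 difference -2.92 ± 0.24). Mx1, an antiviral GTPase, fell to 0, 0.861 and 23.5 at 96 h, against 123 and 143 at 24 h (log2 difference -3.21 ± 0.49). Of the 6 that rose, Isg20, a nuclease, had 227, 333 and 391 at 96 h and 67.3 and 72.9 at 24 h (log2 difference 1.996 ± 0.22 and -0.80 in TPM as deposited). Irf7, the factor that amplifies type I interferon, had 1676, 1991 and 2226 at 96 h and 1382 and 1428 at 24 h (log2 difference 0.47 ± 0.13 and -2.62 in TPM as deposited, not called without 24 h library 1 or 2). On the scale of the deposited TPM, 33 of 34 fell and the rest were not called. None of the 34 rose on that scale. Ifi202b, an interferon-inducible gene of the p200 family outside the list, had 656, 699.9 and 985 at 96 h and was listed at 0 in both 24 h libraries (log2 difference 6.28 ± 0.20).

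Most genes of antigen presentation fell, on the class I and the class II arm. Of 15 genes of MHC class I presentation, all tested, 10 fell and 5 were not called (median log2 difference -1.44), while 6 fell without 24 h library 2. The heavy chain H2-K1 fell to 87.1, 74.2 and 173 rescaled TPM at 96 h, against 2469 and 2456 at 24 h (log2 difference -4.44 ± 0.32). B2m, the common light chain, fell to 2171, 2303 and 2877 at 96 h, against 11924 and 12483 at 24 h (log2 difference -2.32 ± 0.11). Of 8 tested genes of MHC class II presentation, from 9 listed, 1 rose and 7 fell (median log2 difference -2.04), while 4 fell without 24 h library 1 or 2. Without rescaling, all 8 fell in TPM as deposited. H2-Ab1, a chain of the class II dimer, had 0, 0 and 1.16 at 96 h and 44.1 and 53.4 at 24 h (log2 difference -2.50 ± 0.25). The exception was Cd74, the invariant chain that guides class II, with 335, 310.4 and 417 at 96 h and 96.4 and 123 at 24 h (log2 difference 1.60 ± 0.19 and -1.27 in TPM as deposited). Of 9 tested costimulatory and checkpoint genes, from 14 listed, 2 rose and 4 fell (median log2 difference -0.46). With no filter on the mean, 1 of 14 rose and 7 fell (median -0.48). Counted in TPM as deposited, 1 of 12 rose and 10 fell. Cd40, through which T cells signal to macrophages, had 84.6, 115 and 169.9 at 96 h and 19.3 and 15.9 at 24 h (log2 difference 2.23 ± 0.27 and 0.014 in TPM as deposited, not called there). Sirpa, the receptor that reads the signal of Cd47 not to engulf, fell to 58.1, 74.7 and 97.9 at 96 h, against 691 and 694 at 24 h (log2 difference -3.04 ± 0.23). Of Cd86, a costimulatory ligand with a mean under 10, the libraries held 0, 0 and 2.30 at 96 h and 15.6 and 16.4 at 24 h, with no test.

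Genes that define macrophages were lower at 96 h, several of them down to 0. Of 27 macrophage markers, all tested, 24 fell and 3 were not called (median log2 difference -3.15). Their summed value was 6552, 7409 and 9617 rescaled TPM in the 96 h libraries, against 60161 and 60283 in 24 h libraries 1 and 2. In 24 h library 3, given apart, it was 4225, below each 96 h library, with 9 of the 27 above 0. Low marker values were thus not confined to 96 h, though that library held 0.665% of its TPM total in the genes left. In bulk samples, fewer cells of a type and less RNA per cell cannot be told apart. Apoe (ENSMUSG00000002985), the lipid carrier, was listed at 0 in each 96 h library and had 2687 and 2979 at 24 h (log2 difference -8.15 ± 0.15, adjusted p = 2.74e-08), the largest fall of all. C1qb, a chain of complement C1q, was likewise at 0 at 96 h and had 1558 and 1458 at 24 h (log2 difference -7.25 ± 0.15), and its partner chains C1qa and C1qc fell as well. Adgre1 (ENSMUSG00000004730), the antigen F4/80, fell to 5.96, 0 and 43.8 at 96 h, against 2325 and 2120 at 24 h (log2 difference -6.77 ± 0.59, adjusted p = 6.07e-05). Csf1r, the receptor of the growth factor Csf1, fell to 0, 10.4 and 37.6 at 96 h, against 693 and 644 at 24 h (log2 difference -4.99 ± 0.64). Marco, a scavenger receptor, was at 0 at 96 h and had 693 and 473 at 24 h (log2 difference -5.86 ± 0.24). Cd14, Spi1 and Coro1a were the 3 markers not called. Spi1, the master factor PU.1 of the myeloid lineage, had 261, 294 and 450.4 at 96 h and 288 and 280.1 at 24 h (log2 difference 0.19 ± 0.22, adjusted p = 0.453).

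The other genes of largest fall belong to clearance, matrix and signalling. Tgfbi, a secreted matrix protein, was listed at 0 at 96 h and had 1422 and 1287 rescaled TPM at 24 h (log2 difference -7.09 ± 0.16). Pla2g7, the hydrolase of platelet-activating factor, and Npy, neuropeptide Y, were also at 0 at 96 h, with 854 and 803 and with 640.5 and 620.0 at 24 h. Mfge8, the bridge between dying cells and phagocytes, fell to 0, 0 and 11.8 at 96 h, against 1214 and 779 at 24 h (log2 difference -6.24 ± 0.44). Pirb, an inhibitory receptor, fell to 0, 0 and 6.86 at 96 h, against 715 and 725 at 24 h. Fn1, fibronectin, fell to 0, 1.75 and 0 at 96 h, against 464 and 547 at 24 h (log2 difference -5.61 ± 0.22). Smpdl3a, related to acid sphingomyelinase, fell to 0, 0 and 1.71 at 96 h, against 509 and 508 at 24 h. The gene AW112010 was at 0 at 96 h and had 1108 and 1132 at 24 h (log2 difference -6.82 ± 0.30).

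Each tested gene of the lysosome fell. Of 27 tested lysosomal genes, from 28 listed, all fell (median log2 difference -2.80). Ctsd (ENSMUSG00000007891), the aspartic protease cathepsin D, had 581, 623 and 785 rescaled TPM at 96 h and 14940 and 13751 at 24 h (log2 difference -4.43 ± 0.13, adjusted p = 1.76e-07). Psap, the precursor of the saposins that help digest sphingolipids, fell to 571, 580.1 and 725 at 96 h, against 11296 and 11034 at 24 h (log2 difference -4.14 ± 0.14). Gpnmb, a glycoprotein of loaded lysosomes, fell to 333, 366 and 416 at 96 h, against 7060 and 6583 at 24 h (log2 difference -4.17 ± 0.14). The membrane protein Lamp1 fell to 363, 386 and 514 at 96 h, against 2010 and 2022 at 24 h (log2 difference -2.25 ± 0.15). Mcoln1, the calcium channel of the lysosome, had 0, 0 and 6.36 at 96 h and 36.4 and 35.2 at 24 h (log2 difference -1.96 ± 0.31). The smallest fall was that of Ctsk, the collagen-digesting cathepsin K, with 95.6, 135 and 156 at 96 h and 277 and 206 at 24 h (log2 difference -0.87 ± 0.24, not called without 24 h library 1).

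Lysosomal genes are known to share the E-box CACGTG, read by Tfeb and its relatives, so 3 of their promoters are shown with that motif in capitals. The bases are again the 250 before the RefSeq start on GRCm38.p6, at chr7:142387828-142388077 on the minus strand for Ctsd, at chr8:13158911-13159160 on the plus strand for Lamp1 and at chr8:3500269-3500518 on the plus strand for Mcoln1.
Ctsd: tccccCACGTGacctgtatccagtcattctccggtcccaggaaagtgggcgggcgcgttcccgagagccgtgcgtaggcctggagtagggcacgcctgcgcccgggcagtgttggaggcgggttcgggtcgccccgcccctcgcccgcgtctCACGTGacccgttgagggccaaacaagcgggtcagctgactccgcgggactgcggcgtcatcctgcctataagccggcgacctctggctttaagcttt
Lamp1: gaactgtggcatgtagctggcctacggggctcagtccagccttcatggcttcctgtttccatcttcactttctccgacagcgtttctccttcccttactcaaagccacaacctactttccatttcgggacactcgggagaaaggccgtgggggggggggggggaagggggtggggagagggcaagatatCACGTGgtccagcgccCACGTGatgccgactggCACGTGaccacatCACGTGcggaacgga
Mcoln1: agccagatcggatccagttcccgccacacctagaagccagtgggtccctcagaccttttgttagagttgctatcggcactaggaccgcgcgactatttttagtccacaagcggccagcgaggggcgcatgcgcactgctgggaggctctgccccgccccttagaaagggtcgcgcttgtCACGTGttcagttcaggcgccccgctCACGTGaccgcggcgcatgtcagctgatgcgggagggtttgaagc
CACGTG, which reads the same on both strands, was found 4 times before Lamp1 and 2 times before each of Ctsd and Mcoln1. It was found in 7 of the 23 lysosomal promoters with an entry, against 6.05% of all 27025.

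**Figure D3:**
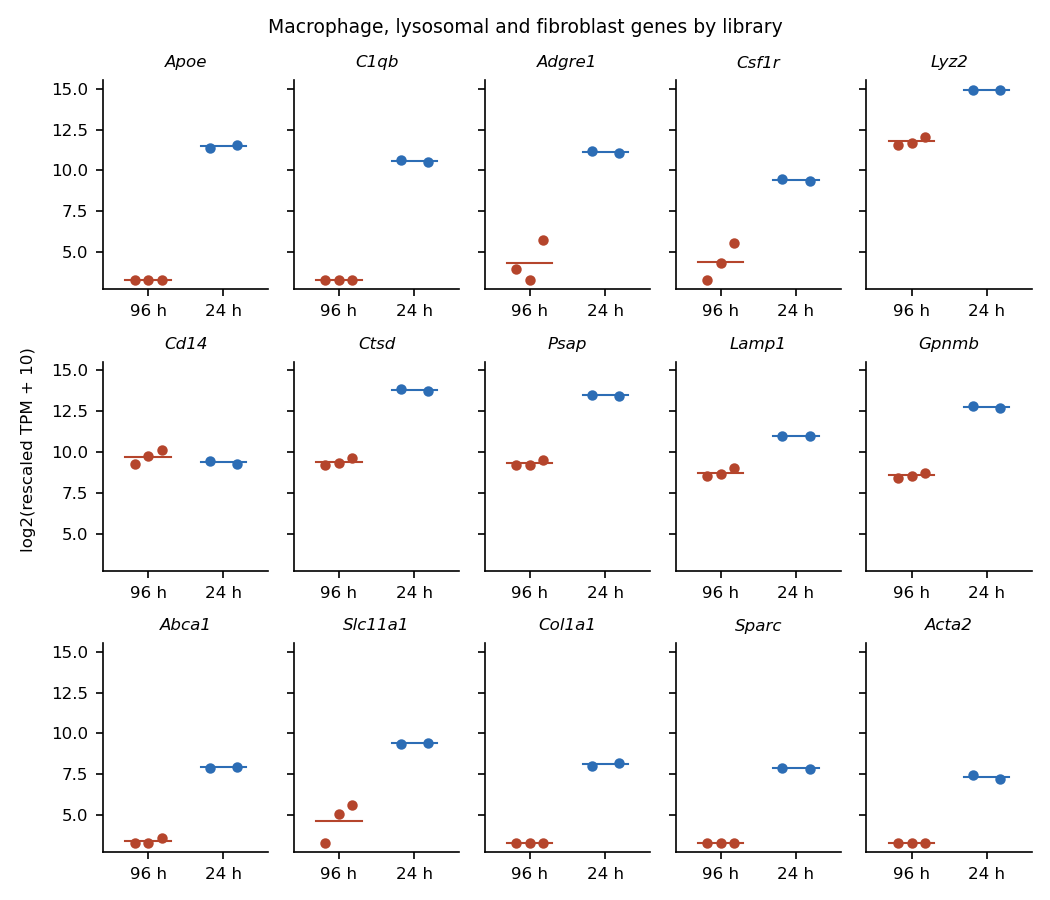
Values of 15 macrophage, lysosomal and fibroblast genes as log2(rescaled TPM + 10), one point per library and a line at the group mean, 96 h left of 24 h. All genes but Cd14, which turns to lower in TPM as deposited, lie lower at 96 h, and Apoe, C1qb, Col1a1, Sparc and Acta2 lie at the floor given by a value of 0 in every 96 h library.

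Lipid, iron and oxidant handling fell along with the lysosome. Of 13 genes of lipid efflux and uptake, all tested, 10 fell and 3 were not called (median log2 difference -2.54). Abca1, the pump that loads cholesterol onto apolipoproteins, fell to 0, 0 and 2.19 rescaled TPM at 96 h, against 232 and 241 at 24 h (log2 difference -4.53 ± 0.22). Nr1h3, the oxysterol receptor LXRα that drives Abca1 and Apoe, fell to 0, 0 and 4.09 at 96 h, against 161 and 157 at 24 h (log2 difference -3.91 ± 0.25). Lpl, lipoprotein lipase, had 491, 588 and 769 at 96 h and 709 and 579.6 at 24 h (log2 difference -0.08 ± 0.19, adjusted p = 0.709) and was not called. Of 14 tested genes of heme and iron handling, from 17 listed, 1 rose and 10 fell (median log2 difference -1.74). Read as deposited TPM, 1 of 16 rose and 14 fell. Slc11a1, the metal pump Nramp1 of the phagosome, fell to 0, 23.8 and 39.4 at 96 h, against 657 and 672 at 24 h (log2 difference -4.72 ± 0.59). Fth1, the ferritin heavy chain, was the most abundant of these genes, with 48288, 50775 and 59784 at 96 h and 75856 and 78170 at 24 h (log2 difference -0.55 ± 0.0834). It was not called with no background subtracted, or with the 90th percentile of the receptor genes subtracted (-0.094).

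Of 17 tested Nrf2 targets, from 21 listed, 14 fell and 3 were not called (median log2 difference -1.48), while 9 fell without 24 h library 1. Gstm1, a glutathione transferase, fell to 0, 10.2 and 14.9 rescaled TPM at 96 h, against 381 and 331 at 24 h (log2 difference -4.42 ± 0.41). Cat, catalase, had 0, 0 and 22.9 at 96 h and 173 and 144 at 24 h (log2 difference -3.49 ± 0.52). Hmox1 (ENSMUSG00000005413), heme oxygenase, had 1030, 1089 and 1095 at 96 h and 1853 and 1574 at 24 h (log2 difference -0.67 ± 0.0865, adjusted p = 0.000504), a small fall beside these. With the 90th percentile of the receptor genes subtracted, Hmox1 was not called (-0.27). Of 11 tested genes of the phagocyte oxidase and superoxide control, from 12 listed, 10 fell and 1 was not called (median log2 difference -1.27), while 6 fell without 24 h library 1 or 2 and in the fit of the 5 libraries alone. Cyba and Cybb form the membrane core of the oxidase. Cyba fell to 198, 313 and 321 at 96 h, against 2137 and 2150 at 24 h (log2 difference -2.94 ± 0.21). Cybb fell to 349.6, 409 and 540.3 at 96 h, against 1276 and 1244 at 24 h (log2 difference -1.54 ± 0.16). Sod1, the cytosolic superoxide dismutase, had 678, 453 and 772 at 96 h and 522 and 473 at 24 h (log2 difference 0.31 ± 0.23, adjusted p = 0.259) and was not called.

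Of 8 tested acute phase and complement genes, from 16 listed, all fell (median log2 difference -2.79), while 5 fell without 24 h library 1. Members under the filter included, 12 of 16 fell (median -1.66). Saa3, serum amyloid A of macrophages, fell to 849, 944 and 1136 rescaled TPM at 96 h, against 4999 and 5489 at 24 h (log2 difference -2.42 ± 0.14). C3, the central complement protein, had 0, 0.259 and 49.2 at 96 h and 425 and 401 at 24 h (log2 difference -4.53 ± 0.67). Of 5 tested genes of alternative activation, from 13 listed, all fell (median log2 difference -2.78), while 3 fell without 24 h library 1 or 2. Over the list without that filter, 9 of 13 fell (median -0.75). Mrc1 (ENSMUSG00000026712), the mannose receptor, had 0, 5.28 and 9.76 at 96 h and 41.8 and 35.0 at 24 h (log2 difference -1.74 ± 0.37, adjusted p = 0.00581, not called without 24 h library 1 or 2). Clec7a, the β-glucan receptor Dectin-1, had 12.05, 0.790 and 36.7 at 96 h and 360.4 and 326 at 24 h (log2 difference -3.98 ± 0.75). Acute phase genes and genes of the alternative state were thus both lower at 96 h.

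Some genes of metal binding, hypoxia and heat shock rose as well. Of 6 tested metallothionein and zinc genes, from 8 listed, 3 rose and 3 were not called (median log2 difference 1.22). Tested with no filter, 3 of 8 rose and 1 fell (median 0.34). As deposited TPM, 1 of 7 rose and 3 fell. Mt2, a metallothionein that binds zinc and copper, had 1597, 2106 and 2465 rescaled TPM at 96 h and 57.8 and 46.7 at 24 h (log2 difference 5.04 ± 0.17). Mt1, its neighbour, had 764, 1082 and 1472 at 96 h and 124 and 122 at 24 h (log2 difference 3.02 ± 0.24 and 0.035 in TPM as deposited, not called there). Slc30a4, a zinc exporter, had 36.6, 45.6 and 51.0 at 96 h and 6.32 and 6.04 at 24 h (log2 difference 1.74 ± 0.28 and 0.38 in TPM as deposited, not called there, and 0.19 and not called with the 90th percentile of the receptor genes subtracted), and in 96 h libraries 1 and 2 it lies within the receptor signal. Metallothionein promoters are shown because zinc acts on them through metal response elements. Capitals mark TGCACNC or TGCGCNC, the element's core, on either strand in the 250 bases before the RefSeq start on GRCm38.p6, at chr8:94178839-94179088 on the plus strand for Mt1 and at chr8:94172368-94172617 on the plus strand for Mt2.
Mt1: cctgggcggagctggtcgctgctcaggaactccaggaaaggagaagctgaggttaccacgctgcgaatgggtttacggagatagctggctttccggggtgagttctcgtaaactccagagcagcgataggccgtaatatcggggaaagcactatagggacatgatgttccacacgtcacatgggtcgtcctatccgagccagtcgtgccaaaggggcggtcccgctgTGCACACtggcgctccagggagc
Mt2: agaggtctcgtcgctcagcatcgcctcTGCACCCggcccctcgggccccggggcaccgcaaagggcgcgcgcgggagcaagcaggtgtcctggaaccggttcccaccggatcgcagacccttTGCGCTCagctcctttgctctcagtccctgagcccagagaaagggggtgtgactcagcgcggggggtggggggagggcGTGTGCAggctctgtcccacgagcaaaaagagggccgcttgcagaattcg
The core was found once before Mt1 and 3 times before Mt2, and in 4 of the 7 promoters of the list with an entry, against 21.3% of all promoters.

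Slc2a1, the glucose transporter GLUT1, had 673, 563 and 651 rescaled TPM at 96 h and 70.2 and 63.4 at 24 h (log2 difference 3.05 ± 0.13 and 0.17 in TPM as deposited, not called there). The glycolytic enzymes did not move as a block. Of 17 tested genes of glycolysis and glucose uptake, from 18 listed, 4 rose and 6 fell (median log2 difference -0.24), while 3 fell without 24 h library 1 or 2 and in the fit of the 5 libraries alone. On the scale of the deposited TPM, 16 of 17 fell and the rest were not called. Hk1, a hexokinase, had 84.3, 76.0 and 133 at 96 h and 34.1 and 30.9 at 24 h (log2 difference 1.31 ± 0.25 and -1.03 in TPM as deposited, and 0.82 and not called with the 90th percentile of the receptor genes subtracted). Hk3, the hexokinase of myeloid cells, fell to 74.4, 95.2 and 121 at 96 h, against 425 and 384 at 24 h (log2 difference -1.98 ± 0.23). Of 9 tested hypoxia-induced genes, from 15 listed, 3 rose and 6 were not called (median log2 difference 0.62), while 5 rose without 96 h library 1. When low members were kept, 3 of 15 rose and 5 fell (median 0.09). Without rescaling, 1 of 14 rose and 9 fell in TPM as deposited. The risers were Bnip3, Ndrg1 and Egln1. For Egln1 the log2 difference was -1.15 in TPM as deposited, and 0.61 and not called with the 90th percentile of the receptor genes subtracted. Bnip3, a receptor for the removal of mitochondria, had 230.3, 154 and 212 at 96 h and 27.9 and 33.6 at 24 h (log2 difference 2.34 ± 0.20 and -0.22 in TPM as deposited). Hif1a, the oxygen-regulated factor itself, had 93.1, 126 and 182 at 96 h and 102 and 107 at 24 h (log2 difference 0.28 ± 0.25, adjusted p = 0.336) and was not called.

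Of 16 tested heat shock chaperones, from 17 listed, 9 rose and 2 fell (median log2 difference 0.77), while 4 fell without 96 h library 3 and 0 without 24 h library 1 or 2. Counted in TPM as deposited, 2 of 17 rose and 15 fell. Hspa1a and Hspa1b, near-identical copies of inducible Hsp70 between which reads can be split, had low levels at 24 h. Hspa1b had 47.9, 146 and 229 rescaled TPM at 96 h and 3.93 and 4.54 at 24 h (log2 difference 3.18 ± 0.50, and 2.38 and not called with the 90th percentile of the receptor genes subtracted). Hsp90ab1, a constitutive Hsp90, had 2131, 2635 and 2881 at 96 h and 1081 and 1016 at 24 h (log2 difference 1.26 ± 0.12 and -1.83 in TPM as deposited). Ddit3, the stress factor CHOP, had 240.1, 258 and 272 at 96 h and 65.2 and 64.8 at 24 h (log2 difference 1.83 ± 0.14 and -0.94 in TPM as deposited). Of 17 tested genes of the integrated stress response, from 21 listed, 4 rose and 2 fell (median log2 difference 0.34), while 2 rose without 24 h library 2, and 4 fell without 96 h library 3. Read as deposited TPM, 16 of 21 fell and the rest were not called. Of 18 tested folding factors of the endoplasmic reticulum, from 19 listed, 3 rose and 4 fell (median log2 difference -0.23), while 10 fell without 96 h library 3 and 2 without 24 h library 1 or 2. As deposited TPM, all 19 fell.

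Of nuclear genes for mitochondrial proteins more fell than rose, as among all protein-coding genes, in 96 h libraries that are mostly mitochondrial RNA. Of 15 genes of itaconate synthesis and the TCA cycle, all tested, 10 fell and 5 were not called (median log2 difference -1.32), while 0 fell without 24 h library 1 or 2 and 1 in the fit of the 5 libraries alone. Acod1 (ENSMUSG00000022126), which makes itaconate from the cycle's cis-aconitate, had 744, 923 and 1202 rescaled TPM at 96 h and 1089 and 1138 at 24 h (log2 difference -0.24 ± 0.19, adjusted p = 0.277), so its groups overlap and it was not called. Sdha, the flavoprotein of succinate dehydrogenase, which itaconate inhibits, had 0, 0.514 and 48.8 at 96 h and 136 and 132 at 24 h (log2 difference -2.97 ± 0.78, not called without 24 h library 1 or 2). Idh1, the cytosolic isocitrate dehydrogenase, had 0, 50.4 and 58.5 at 96 h and 176 and 172 at 24 h (log2 difference -2.41 ± 0.72, adjusted p = 0.0235, not called without 24 h library 1 or 2). For Sdha and Idh1, 96 h library 1 was at 0 and library 3 highest, values within the receptor signal of libraries 1 and 2. Without 96 h libraries 1 and 2, 3 of these 15 genes fell.

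Of 34 nuclear genes of the respiratory chain, all tested, 6 rose and 14 fell (median log2 difference -0.58), while 3 fell without 24 h library 1 or 2 and 7 in the fit of the 5 libraries alone. Protein-coding genes of the fit had a median of -0.71, and 36.7% of them fell, so this list lies near their level. On the scale of the deposited TPM, all 34 fell. Uqcrb, of complex III, had 908, 813 and 1013 at 96 h and 204 and 206 at 24 h (log2 difference 2.09 ± 0.18 and -0.92 in TPM as deposited). Cox7a2, of cytochrome oxidase, had 0, 0 and 56.1 at 96 h and 256 and 246 at 24 h (log2 difference -3.80 ± 0.91, not called without 24 h library 1 or 2). Subunits of 1 complex thus moved in both directions, as for complex IV, where Cox6c had 169, 159.5 and 204 at 96 h and 58.8 and 56.3 at 24 h (log2 difference 1.47 ± 0.15 and -1.20 in TPM as deposited).

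Of 8 tested genes of mitochondrial fission and fusion, from 12 listed, 5 fell and 3 were not called (median log2 difference -1.49), while 3 fell without 96 h library 1 or 2, 0 without 24 h library 1 or 2, and 2 in the fit of the 5 libraries alone. Dnm1l (ENSMUSG00000022789), which encodes the fission GTPase Drp1, had 9.75, 0.328 and 39.9 rescaled TPM at 96 h and 51.8 and 56.5 at 24 h (log2 difference -1.56 ± 0.57, adjusted p = 0.0486), so the call lies just inside the threshold. It was lost without any one library other than 96 h library 3. The call was also lost in the fit of the 5 libraries alone, with a pseudocount of 1 and with no filter on low values. Over protein-coding genes alone and with all 12 libraries it was lost too. Without 96 h libraries 1 and 2 the log2 difference was -0.36. Fis1, an adaptor of the outer membrane, had 8.30, 40.4 and 28.6 at 96 h and 123 and 132 at 24 h (log2 difference -2.06 ± 0.52, not called without 24 h library 1 or 2). Opa1, the fusion GTPase of the inner membrane, had 0, 0 and 9.63 at 96 h and 30.1 and 29.6 at 24 h (log2 difference -1.67 ± 0.35). Mfn2, of outer membrane fusion, had 29.0, 53.3 and 72.2 at 96 h and 32.7 and 32.7 at 24 h (log2 difference 0.46 ± 0.31, adjusted p = 0.218) and was not called. Of 14 tested mitophagy and autophagy receptors, from 16 listed, 1 rose and 10 fell (median log2 difference -1.28), while 1 fell without 24 h library 1, 2 without 24 h library 2, and 5 in the fit of the 5 libraries alone. Without rescaling, 15 of 16 fell and the rest were not called in TPM as deposited. Pink1, the kinase that marks damaged mitochondria, was at 0 at 96 h and had 28.3 and 24.9 at 24 h (log2 difference -1.87 ± 0.24). Bnip3, described above, was the 1 that rose, and it lay lower at 96 h in TPM as deposited.

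Most tested genes of DNA replication fell at 96 h, while most listed genes of mitosis had means under 10. Of 15 tested genes of DNA replication and S phase, from 30 listed, 13 fell and 2 were not called (median log2 difference -1.95), while 3 fell without 24 h library 1, 7 without 24 h library 2, and 5 in the fit of the 5 libraries alone. With no filter on the mean, 25 of 30 fell (median -1.29). Rrm2, which makes deoxynucleotides, had 0, 0 and 2.92 rescaled TPM at 96 h and 50.6 and 40.8 at 24 h (log2 difference -2.35 ± 0.26). Pcna, the clamp of the replication fork, had 26.0, 70.7 and 67.7 at 96 h and 288 and 247 at 24 h (log2 difference -2.18 ± 0.37). Mki67 (ENSMUSG00000031004), the proliferation marker Ki-67, had 28.0, 38.2 and 51.8 at 96 h and 35.2 and 31.8 at 24 h (log2 difference 0.15 ± 0.27, adjusted p = 0.617), and its groups overlap. Of 6 tested genes of G2 and mitosis, from 30 listed, 1 fell and 5 were not called (median log2 difference 0.23), while 2 rose without 96 h library 1, and 3 fell without 96 h library 3. Members under the filter included, 15 of 30 fell (median -0.74). The 1 was Top2a, of chromosome untangling, with 0, 1.30 and 19.1 at 96 h and 28.9 and 23.9 at 24 h (log2 difference -1.29 ± 0.45, adjusted p = 0.0413, not called without 96 h library 1 or 2 or 24 h library 1 or 2). The values of Mki67 and Top2a in 96 h libraries 1 and 2 lie within the receptor signal. Those in 96 h library 3 lie above its receptor 95th percentile (16.9).

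Replication histones split, and their near-identical copies make single values uncertain. Of 28 replication histones, all tested, 5 rose and 14 fell (median log2 difference -2.30), while 8 rose without 96 h library 1 and 3 without 24 h library 1 or 2, and 9 fell without 24 h library 1 or 2. Counted in TPM as deposited, 26 of 28 fell and the rest were not called. Hist1h1e, a linker histone, had 1837, 2114 and 2734 rescaled TPM at 96 h and 214 and 191 at 24 h (log2 difference 3.38 ± 0.17 and 0.33 in TPM as deposited, not called there). Hist1h4c, a histone H4 gene, was at 0 at 96 h and had 322 and 289 at 24 h (log2 difference -4.98 ± 0.21). Hist1h2al, outside the list, had 633, 633 and 427 at 96 h and was listed at 0 in both 24 h libraries (log2 difference 5.82 ± 0.24). Hist1h4n, also outside the list, was at 0 at 96 h and had 562 and 510.1 at 24 h (log2 difference -5.77 ± 0.57).

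Of 15 tested matrix and matrix-remodelling genes, from 17 listed, 5 rose and 6 fell (median log2 difference -1.06). Read as deposited TPM, 15 of 17 fell and the rest were not called. Plaur, the receptor of the plasminogen activator urokinase, had 418, 440.4 and 617 rescaled TPM at 96 h and 51.9 and 45.6 at 24 h (log2 difference 3.07 ± 0.23 and 0.27 in TPM as deposited, not called there). Mmp12, the elastase of macrophages, fell to 14.1, 0 and 1.33 at 96 h, against 348 and 283 at 24 h (log2 difference -4.53 ± 0.37). Of 13 tested genes of fatty acid oxidation, from 16 listed, 7 fell and 6 were not called (median log2 difference -1.52), while 2 fell without 24 h library 1 or 2 and 4 in the fit of the 5 libraries alone. Cpt1a, which brings long fatty acids into mitochondria, was at 0 in each 96 h library and had 87.1 and 82.9 at 24 h (log2 difference -3.25 ± 0.23).

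Of 23 actin and tubulin cytoskeleton genes, all tested, 4 rose and 13 fell (median log2 difference -0.76), while 8 fell without 24 h library 1. As deposited TPM, 22 of 23 fell and the rest were not called. The split of this list changed with the setting, with 9 genes up and 9 down when the 90th percentile of the receptor genes was subtracted. Tmsb10, an actin-binding thymosin, fell to 115, 23.9 and 97.5 rescaled TPM at 96 h, against 1903 and 1881 at 24 h (log2 difference -4.63 ± 0.50). Of 12 tested BCL2 family genes, from 16 listed, 2 rose and 5 fell (median log2 difference -0.60), while 1 fell without 24 h library 1 and in the fit of the 5 libraries alone, and 0 without 24 h library 2. On the scale of the deposited TPM, 11 of 14 fell and the rest were not called. Bcl2l1, the survival factor BCL-XL, had 162, 205 and 227 at 96 h and 67.3 and 70.7 at 24 h (log2 difference 1.39 ± 0.18 and -1.32 in TPM as deposited). Of 13 tested immediate early genes, from 21 listed, 3 rose and 5 fell (median log2 difference -0.05), while 1 fell without 24 h library 1 or 2 and in the fit of the 5 libraries alone. Without rescaling, 15 of 19 fell and the rest were not called in TPM as deposited. Zfp36, which marks cytokine RNAs for decay, had 141, 167 and 238 at 96 h and 40.0 and 46.0 at 24 h (log2 difference 1.83 ± 0.26 and -0.77 in TPM as deposited).

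Cytosolic ribosomal protein genes gave the largest count of risers among the gene lists on the rescaled scale, and the direction turns in TPM as deposited, where 1 of 64 rose and 60 fell. Of 64 cytosolic ribosomal protein genes, all tested, 38 rose and 7 fell (median log2 difference 0.79), while 4 fell without 96 h library 2 or 24 h library 1 or 2 and in the fit of the 5 libraries alone, and 13 without 96 h library 3. Rpl27 had 376, 535 and 508 rescaled TPM at 96 h and 27.6 and 28.6 at 24 h (log2 difference 3.65 ± 0.21). Rpsa, which doubles as a laminin receptor, had 2972, 3428 and 3895 at 96 h and 469.7 and 459.8 at 24 h (log2 difference 2.85 ± 0.11 and -0.24 in TPM as deposited). Rps27 fell to 135, 182 and 373 at 96 h, against 518 and 523 at 24 h (log2 difference -1.27 ± 0.37, adjusted p = 0.0212, not called without 96 h library 2 or 24 h library 1 or 2). These genes have many processed pseudogenes, between which reads can be split.

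Among the 15 genes of largest rise, 5 described here are near-identical copies of an abundant gene, and in each of these 5 pairs the copy took a large share at 96 h and almost none at 24 h. Lyz1 (ENSMUSG00000069515), a lysozyme next to Lyz2, made up 47.5%, 48.3% and 46.7% of the sum of both genes at 96 h, against 0.238% and 0.227% at 24 h. Ftl1-ps1, a processed copy of the ferritin light chain gene Ftl1, made up 67.3%, 67.4% and 67.5% of their sum at 96 h and 0.233% and 0.296% at 24 h. The shares were 60.3%, 67.9% and 63.8% at 96 h and 1.02% and 1.10% at 24 h for Eno1b beside Eno1. For Tpm3-rs7 beside Tpm3 they were 57.3%, 59.8% and 60.2% at 96 h and 1.25% and 2.11% at 24 h. Rpl36-ps3 beside Rpl36 had 37.8%, 41.3% and 45.8% at 96 h and 0% and 0.0852% at 24 h.

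24 h library 3 was nearer to the 96 h libraries than to the other 24 h libraries in each of these 5 pairs, with 24.4% for Lyz1, 73.0% for Ftl1-ps1, 61.3% for Eno1b, 69.7% for Tpm3-rs7 and 45.2% for Rpl36-ps3. In this measure 24 h library 3 stood with the libraries rich in mitochondrial RNA, and the part of read assignment was not tested. Values of single copies are therefore uncertain, and the sums of the 5 pairs are given. The sum of Lyz1 and Lyz2 was 5808, 6341 and 8044 rescaled TPM at 96 h and 30927 and 31492 at 24 h, and that of Ftl1 and Ftl1-ps1 was 8472, 9133 and 10733 at 96 h and 29211 and 26476 at 24 h, lower at 96 h in both cases. The other 3 sums were higher at 96 h on the rescaled scale and lower in TPM as deposited. The sum of Eno1 and Eno1b was 1057, 1259 and 1495 rescaled TPM at 96 h and 489.9 and 482 at 24 h, or 60.9, 72.6 and 87.4 TPM at 96 h and 234 and 234 TPM at 24 h. For Tpm3 and Tpm3-rs7 it was 1525, 1650 and 1948 rescaled TPM at 96 h and 331 and 338 at 24 h, or 85.6, 93.8 and 114 TPM at 96 h and 158 and 164 TPM at 24 h. For Rpl36 and Rpl36-ps3 it was 2157, 2809 and 3149 rescaled TPM at 96 h and 929 and 865 at 24 h, or 119, 157 and 183 TPM at 96 h and 444 and 419 TPM at 24 h. Olfm1, which encodes a secreted olfactomedin, had 432, 553 and 604 at 96 h and 3.01 and 3.27 at 24 h (log2 difference 5.35 ± 0.21).

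**Figure D4:**
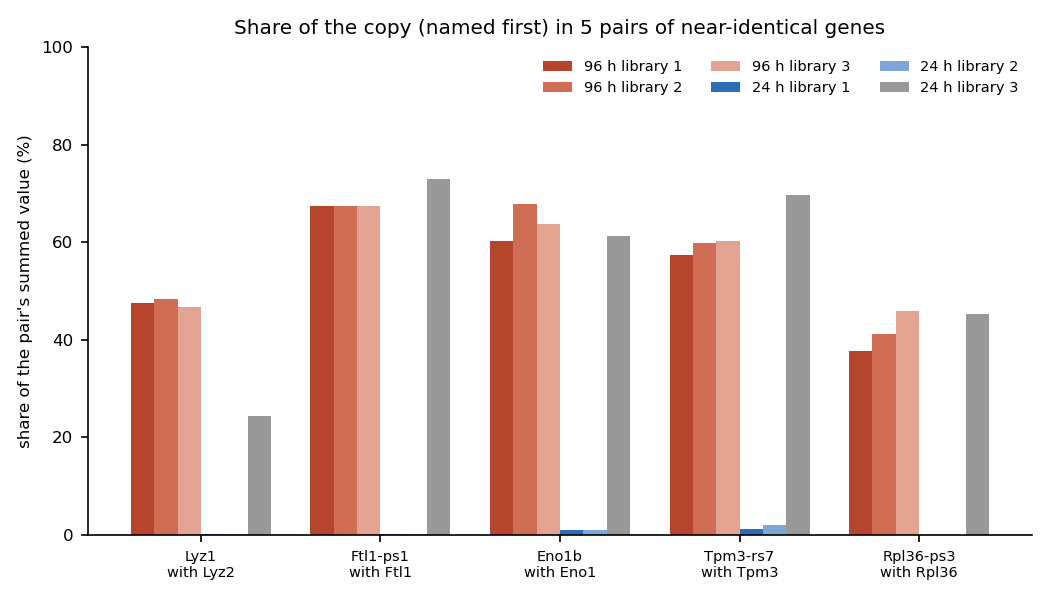
Share, in percent, of the copy in the summed rescaled TPM of 5 pairs of near-identical genes, as bars for each of the 6 libraries, 96 h libraries first. The copy takes 37.8% to 67.9% in the 96 h libraries and at most 2.11% in 24 h libraries 1 and 2, with 24 h library 3 nearer to the 96 h libraries in each pair.

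24 h library 3 held 0.665% of its TPM total in genes left after the removals and the subtraction, and 1 TPM became 150.4 rescaled units in it. Its receptor median was 0.357 TPM, so small values of this library cannot be read. The abundant genes could be: Fth1 had 30257 rescaled TPM, Lyz2 3004, Ftl1 4311 and Rpl19 5345. Csf3, Il1b, Ptgs2, Nos2, Tnf, Apoe, C1qb, Adgre1 and Col1a1 were all listed at 0. With the 24 h libraries numbered 3 added to the fit, in which both drug groups enter, 61 genes rose and 2 fell by limma.

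**Figure D5:**
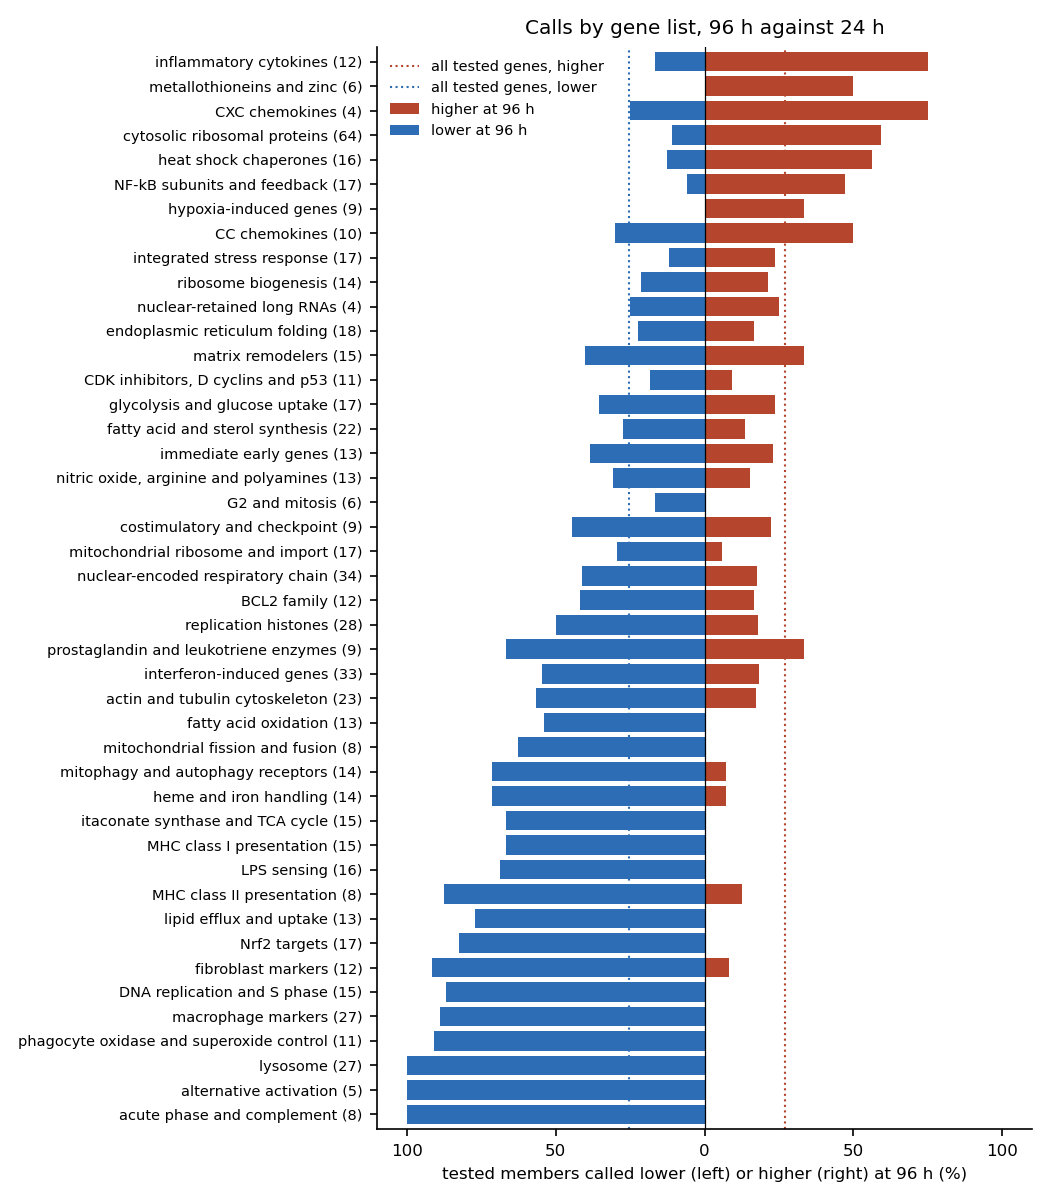
Share of tested members of each gene list called lower (left) or higher (right) at 96 h against 24 h, in percent, for the lists with at least 4 tested members, whose number is in parentheses. Dotted lines mark the 27.2% and 25.4% of all tested genes. Of protein-coding genes 16.8% rose and 36.7% fell, which is not drawn. Inflammatory cytokines and ribosomal proteins lie far to the right, lysosome and macrophage markers far to the left, and in TPM as deposited more cytokines rose than fell while the ribosomal proteins turn to lower.

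The same comparison of times in cells given 50 µM Mdivi-1 uses its own 24 h and 96 h libraries. It called 2507 genes higher and 2490 lower of 10208. The difference between the 2 time effects passed the threshold for 2 genes (0.0196%), Il1b and Hmox1, both with a smaller value without the drug, while 272 had an unadjusted p under 0.05. Neither of the 2 passed with no background subtracted, or with the replicate numbers as a block. Il1b rose by 5.89 ± 0.136 without and by 7.91 ± 0.136 with Mdivi-1 on the log2 scale (SE, 2 or 3 libraries per group). Hmox1 fell by 0.67 ± 0.0865 without and rose by 1.11 ± 0.0865 with Mdivi-1 on the rescaled scale, while in TPM as deposited it lay lower at 96 h in both. For all other genes the 2 time effects were not shown to differ, which does not show them to be alike.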

How the data were processed

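Ribosomal RNA was depleted from total RNA and directional libraries were made, per the labels' protocols. The authors deposited 1 table of TPM, a level scaled by gene length and library, for 49585 genes and 12 libraries. The submitters' processing notes name hg19, a human build, while the gene IDs are mouse Ensembl IDs, of which 49326 (99.5%) are in GENCODE M21. For the aligner, the counter and the annotation, a name is not given in the sources used here, nor is depth, so no counting interval is given.

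From these deposited TPM, 37 mitochondrial, 6084 structured RNA and 13 satellite-like genes were removed, which left 43451. The median of 1981 odorant, pheromone and trace amine receptor genes (Olfr, Vmn1r, Vmn2r, Taar) was subtracted in each library, values below 0 were set to 0, and the rest was rescaled to 1000000.

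Genes with a mean of at least 10 over the 5 libraries were tested as log2(value + 10), which understates changes of low genes, with limma 3.58.1 (trend, R 4.3.3). The fit held 10 libraries in 4 groups of time and drug, without the 24 h libraries numbered 3, with 6 residual degrees of freedom and Benjamini-Hochberg adjustment over all 10208 genes. It was tested on simulated data first. The difference between the time effects without and with Mdivi-1 was a contrast of the same fit. Promoters came from RefSeq. A gene was taken as satellite-like where at least 10% of its 12-base words occur in the gene Gm10800. The 5 pairs of near-identical copies were listed by hand, with no test of their sequences.

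Named genes were, by rule, the 15 called genes of largest rise and the 15 of largest fall with separate groups and full symbols, up to 5 called members of each list, and 15 set genes. Of 153 genes named, 42 fall outside the rule and were chosen after their values were seen. Some genes that the rule names are not reported here. The members and the gene lists were chosen with earlier results of these data known. The alternatives, 2 of them chosen after seeing the data, are given in the closing section.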

Additional observations from a re-analysis of the deposited data

Results flagged for a closer look

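The time effects without and with Mdivi-1 differed for 2 genes, by limma with adjustment over 10208 genes. No gene passed with the replicate block, with no background subtracted or with all 12 libraries.

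Il1b rose less without the drug than with it, by a difference of -2.03 ± 0.19 on the log2 scale (adjusted p = 0.0217). Without Mdivi-1 it had 6179, 6543 and 8322 rescaled TPM at 96 h and 108 and 107 at 24 h. With Mdivi-1 it had 9862, 9958 and 9722 at 96 h and 26.9 and 35.3 at 24 h. It was higher at 96 h in both drug groups.

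Hmox1 moved in opposite directions, by a difference of -1.78 ± 0.12 (adjusted p = 0.00351). Without Mdivi-1 it had 1030, 1089 and 1095 rescaled TPM at 96 h and 1853 and 1574 at 24 h. With Mdivi-1 it had 3594, 3850 and 3546 at 96 h and 1761 and 1625 at 24 h. In TPM as deposited Hmox1 was lower at 96 h in both drug groups, with 193, 221 and 189.5 TPM at 96 h and 778 and 653 TPM at 24 h with Mdivi-1, so the opposite directions hold on the rescaled scale. The fall of Hmox1 without Mdivi-1 was not called with the 90th percentile of the receptor genes subtracted (-0.27).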

How the results depend on the processing

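The direction and call of the named genes held in 2521 of 2808 comparisons of a gene with an alternative. The call was lost in 206, gained in 20 and turned in sign in 61. These changes were not spread evenly. With all 12 libraries only 26 named genes kept direction and call, while 110 lost the call and 10 turned in sign. In TPM as deposited 112 kept both, 7 lost the call, 3 gained it and 29 turned in sign. For the count of genes that rose at 96 h (2776), the other values were 61 with all 12 libraries, 1453 with the 5 libraries alone, 8877 with no background subtracted, 1002 with the 90th percentile of the receptor genes subtracted, 1142 with a mean of at least 50, 7962 in TPM as deposited, 1640 over protein-coding genes, 1371 over genes above the receptor 95th percentile and 1646 without 96 h libraries 1 and 2. For the genes that fell (2595) they were 2, 1429 and 9263 with all 12 libraries, the 5 alone and TPM as deposited, 830 with a mean of at least 50 and 7984 with no filter on low values. Leaving out 1 library at a time gave 1037 to 3971 risers and 901 to 3732 fallers. The other settings stayed within 1.5 times.

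For the difference between time effects, 2 genes were lower by limma, and 272 genes had an unadjusted p under 0.05. Counts of lower genes were 76 (90th percentile subtracted), 8 (pseudocount 50), 10 (mean of at least 50), 379 (no filter), 18 (TPM as deposited), 17 (protein-coding), 25 (above the receptor 95th percentile) and 227 (without 96 h libraries 1 and 2). Counts of higher genes in those settings were 11, 0, 2, 33, 2, 8, 1 and 1038. Leaving out 1 library gave 0 to 91 higher and 1 to 123 lower. Lower genes numbered 0 with all 12 libraries (56 unadjusted), with no background subtracted (290 unadjusted) and with the replicate block (243 unadjusted). The cause of these shifts was not tested.

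With the replicate block, 2887 genes rose and 2496 fell at 96 h, and of the named genes Ass1 alone lost its call. Deviations of same-numbered libraries correlated at -0.506, -0.292 and -0.676, but 24 h library 3 sets the 24 h deviations, so these values say nothing on pairing. The labels tie the numbers to no shared batch, and the libraries share only a number.

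In TPM as deposited these log2 differences turned in sign: Bcl2l1 -1.32, Bnip3 -0.22, Ccl2 -1.13, Cd14 -2.70, Cd74 -1.27, Coro1a -2.76, Cox6c -1.20, Ddit3 -0.94, Egln1 -1.15, Hif1a -2.35, Hk1 -1.03, Hsp90ab1 -1.83, Il1rn -0.29, Irf7 -2.62, Isg20 -0.80, Mfn2 -1.58, Mki67 -1.80, Nfkb2 -1.12, Nfkbia -0.85, Pla2g4a -0.48, Rpl19 -1.14, Rpl36 -2.29, Rpsa -0.24, Sod1 -2.70, Spi1 -2.72, Tnf -1.35, Tpm3 -1.96, Uqcrb -0.92 and Zfp36 -0.77. With all 12 libraries those that turned were Acod1 2.03, Ccl5 2.59, Ccl6 0.22, Ctsk 0.68, Cxcl16 0.59, Cybb 0.79, Eno1 0.66, Hmox1 1.17, Lpl 0.46 and Saa3 0.59. With no background subtracted they were Cd14 -0.35, Coro1a -0.45, Hif1a -0.092, Irf7 -0.27, Sod1 -0.36 and Spi1 -0.39. With the 90th percentile subtracted they were Acod1 0.14, Eno1 0.22, Lpl 0.26, Mfn2 -0.71 and Mki67 -1.28. Over protein-coding genes they were Acod1 0.11, Eno1 0.26 and Lpl 0.27, and without 96 h libraries 1 and 2 Acod1 0.11, Eno1 0.17 and Lpl 0.26. Leaving out 1 library at a time turned 4 genes of small difference, with ranges of -0.25 to 0.068 for Lpl, -0.10 to 0.21 for Coro1a, -0.023 to 0.33 for Mki67 and -0.034 to 0.35 for Spi1.

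The median log2 difference of all genes was 0.33, against 0.52 with median-of-ratios scaling. It was -0.42 with protein-coding genes alone rescaled and fitted, and -0.71 over the protein-coding genes of the main fit. TPM without counts gives no depth, so no limit from counting error can be set, and 96 h values under the receptor signal cannot be read. With 2 libraries at 24 h, the spread of that group rests on 1 difference and on the other groups in the fit.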
